A study of Mus musculus with 4 samples.

Results

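The genes for the subunits of oxidative phosphorylation were examined in macrophages of mouse periosteum, the sheath on the outer surface of bone. These genes encode the complexes of the inner mitochondrial membrane. Complexes I to IV pass electrons from NADH and succinate to oxygen, complexes I, III and IV pump protons as they do so, and complex V, the ATP synthase, lets the protons flow back to make ATP. Most subunits are encoded in the nucleus and imported, and a small number are encoded by mitochondrial DNA, so that 4 of the complexes need products of both genomes while complex II is nuclear alone. Macrophages are known to shift between oxidative phosphorylation and glycolysis with their state of activation.

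Members were chosen by gene symbol: names that start with mt-, with Nduf followed by a, b, c, s or v and a digit, with Sdh followed by a, b, c or d alone, with Uqcr, with Cox4 to Cox8, or with Atp5, leaving out pseudogenes. The rule found 94 of the 15603 genes listed in the deposited tables, and all 94 stood in both tables. Of these, 13 are mitochondrial genes and 81 are nuclear genes (37 of complex I, 4 of complex II, 8 of complex III, 15 of complex IV and 17 of complex V by symbol). Ndufa4 is counted with complex I by its name, although its product is now assigned to complex IV.

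Cells came from male wild-type C57BL/6 mice at postnatal day 28, with no treatment in any group, and were sorted as CD45-positive and CX3CR1-positive. One sort parted them by ACE, the angiotensin-converting enzyme, into an ACE-positive and an ACE-negative fraction, and the other by CD74, the chaperone chain that accompanies class II MHC molecules, into a CD74-positive and a CD74-negative fraction. Each of the 4 groups holds 1 library of bulk RNA, so nothing below was checked against a replicate, and the labels do not give the number of animals behind a library. Listed genes drew 12561196 reads from the ACE-negative, 10944171 from the ACE-positive, 7020232 from the CD74-negative and 13282126 from the CD74-positive library. Ace was 104-fold higher in the ACE-positive library and Cd74 4.77-fold higher in the CD74-positive library, as their labels say. Across the sorts, ACE-positive cells also had 6.60 times as much Cd74, and CD74-positive cells 3.64 times as much Ace, as their negative fractions.

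Levels are given as the authors' normalised reads, that is, reads divided by a size factor set between the libraries of 1 sort. A log2 ratio is that of the positive over the negative library after adding 1 normalised read, and a bracket after a fold holds an exact binomial 95% interval that covers counting error only. A gene was called lower or higher where its mean reached 5 CPM (reads scaled to the library's total on listed genes), its ratio reached 2-fold and the interval excluded 1. Such a call compares a pair of libraries and not the kinds of cell behind them. In bulk RNA, fewer cells that express a gene and less of its RNA per cell cannot be told apart.

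Most subunit genes were lower in both positive libraries and none was called higher. Of the 88 members tested in the ACE sort, 49 were called lower, where 9.66% of all genes tested were called lower and 10.2% higher. Of the 89 tested in the CD74 sort, 64 were called lower, against 8.4% of all genes lower and 10.1% higher. The median log2 ratio of the members was -1.09 in the ACE sort and -1.13 in the CD74 sort, while that of all genes tested was -0.09 and -0.02. All 88 members tested in the ACE sort, and 88 of 89 in the CD74 sort, had a log2 ratio below 0, and the exception in the CD74 sort was Sdha. A member's place beside the limit is a matter of small differences: Atp5g3 at -1.01 was called in the ACE sort and Ndufv1 at -0.997 was not, and in the CD74 sort Atp5d at -1.001 was called and Cox7a2l at -0.99 was not.

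**Figure D1:**
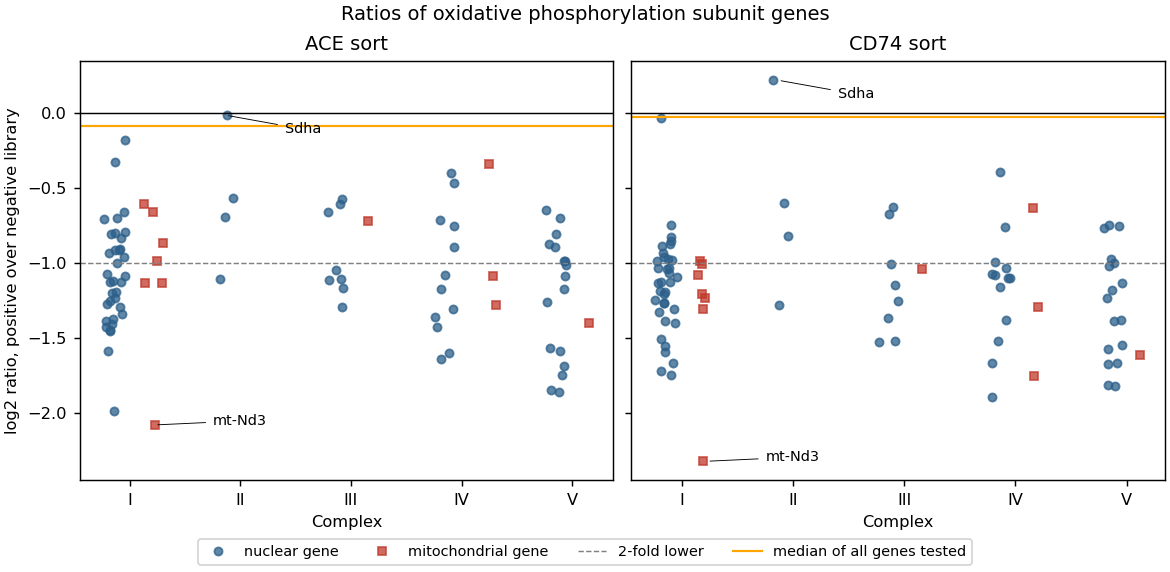
Log2 ratio of the positive over the negative library (vertical axis) for each member tested, by complex, in the ACE sort and the CD74 sort; circles are nuclear genes, squares mitochondrial genes, the dashed line is 2-fold lower and the solid coloured line the median of all genes tested. Each point is 1 gene in 1 pair of libraries; Sdha lies at the top and mt-Nd3 at the bottom of both panels, at -2.08 and -2.32.

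The length of the transcript moved with these ratios across all genes, and subunit genes are short. The principal transcripts of the nuclear members tested had a median of 850 bases in the ACE sort and 838 bases in the CD74 sort, against 3021 and 3020 bases for all genes tested. Among genes other than members, the median log2 ratio in the ACE sort was -0.60 in the fifth with the shortest transcripts and 0.42 in the fifth with the longest, and in the CD74 sort it was -0.72 and 0.62. Of the genes other than members with a transcript under 1000 bases, 37% were called lower in the ACE sort and 49.3% in the CD74 sort. Members under 1000 bases were called lower in 37 of 52 and 47 of 53 cases, and longer members in 12 of 36 and 17 of 36. Of all genes of 1000 bases or more, members included, 7.74% were called lower in the ACE sort and 5.596% in the CD74 sort. The median log2 ratio of these longer members was -0.88 in the ACE sort, against -0.04 for other genes of that length. In the CD74 sort these medians were -0.99 and 0.028. After each ratio was centred on genes of like principal transcript length, 4 of 88 members were called lower in the ACE sort (background 4.83%) and 3 of 89 in the CD74 sort (background 3.46%). After centring on the deposited gene length, which counts the bases of all exons of a gene, 10 of 88 and 10 of 89 were called lower (background 5.4% and 4.69%). The medians stayed below 0 under both: -0.38 and -0.34 for nuclear members with the transcript length, and -0.56 and -0.54 with the deposited length. The calls given below are those without centring, and each rests on genes whose length moves with the ratio; the part that length plays in them beyond these counts was not tested.

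**Figure D2:**
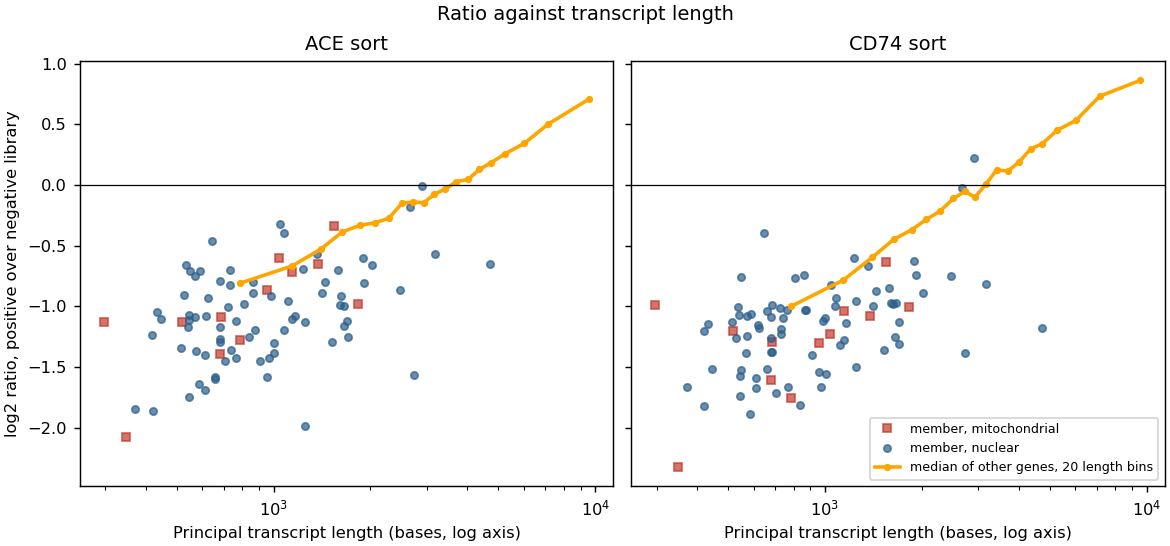
Log2 ratio of the positive over the negative library (vertical axis) against the length of the principal transcript in bases (log axis), for the members tested (circles nuclear, squares mitochondrial) and for the median of the other genes in 20 bins of length (line). The line climbs from left to right in both sorts, and most members lie at its left end, on or below it.

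Genes of mitochondrial DNA took a larger share of the reads than all nuclear members together. Of the reads on listed genes they made up 3.67% in the ACE-negative and 2.80% in the ACE-positive library. For the CD74 sort their share was 3.70% in the negative and 2.29% in the positive library. Nuclear members made up 1.30% and 0.730% in the ACE sort, and 1.30% and 0.715% in the CD74 sort. Both negative libraries thus lay above both positive libraries on each measure. With mt-Co1 counted, mitochondrial over nuclear reads came to 2.82 (negative) and 3.84 (positive) for ACE, and to 2.85 and 3.21 for CD74. This pooled ratio was thus the higher in the positive library of each sort. The gene mt-Co1 alone held 53.3% (negative) and 61.1% (positive) of mitochondrial reads for ACE, and 49.6% and 58.3% for CD74. Reads of mt-Co1, of all mitochondrial genes and of nuclear members were 245738, 460852 and 163259 (negative) and 187021, 306338 and 79879 (positive) for ACE. For CD74 they were 128609, 259459 and 91135 (negative) and 177670, 304539 and 94934 (positive). With mt-Co1 left out, the pooled ratio was higher in the positive library for ACE and lower in the positive library for CD74. Gene by gene, the median log2 ratios of mitochondrial and nuclear members were -1.04 and -1.09 for ACE, but -1.22 and -1.13 for CD74. By these medians the CD74 sort went the other way.

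**Figure D3:**
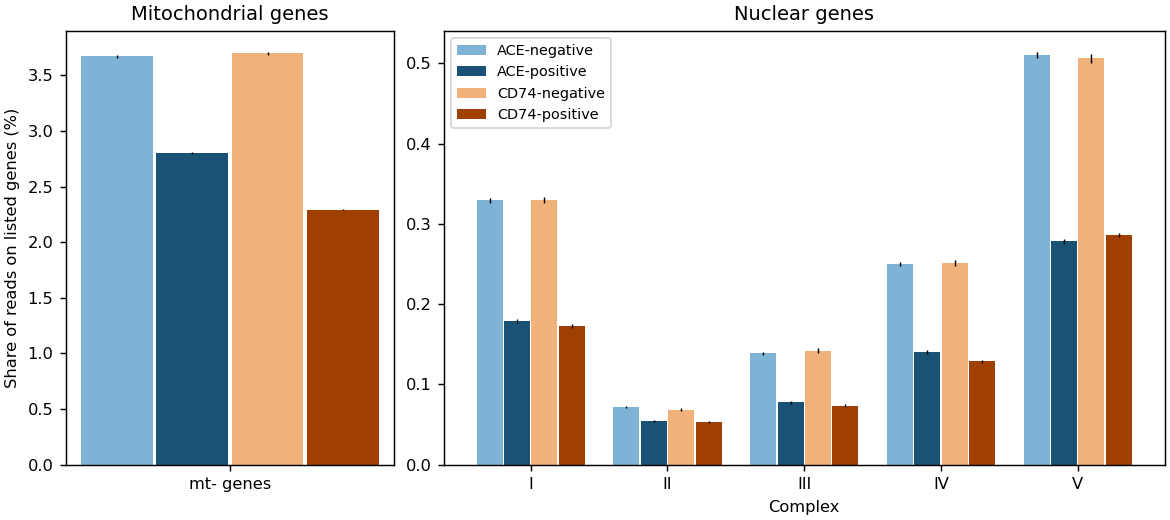
Share of the reads on listed genes (percent, vertical axis) taken by the mitochondrial genes and by the nuclear members of each complex in the 4 libraries; bars start at 0 and the lines on them are 95% binomial intervals for counting error only. In every complex the bars of the negative libraries stand above those of the positive libraries, and complex II has the smallest gap.

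Among the mitochondrial genes, 6 of 12 tested were called lower in the ACE sort and 10 of 12 in the CD74 sort, with medians of -1.04 and -1.22. The gene with the most reads was mt-Co1 (mitochondrial genome, 5328 to 6872), which encodes the catalytic core subunit of cytochrome c oxidase and held 53.3% of the mitochondrial reads in the ACE-negative, 61.1% in the ACE-positive, 49.6% in the CD74-negative and 58.3% in the CD74-positive library. Its level was 241044 in the ACE-negative and 190663 in the ACE-positive library, which is 1.26-fold lower [1.26 to 1.27]. In the CD74 sort it stood at 188279 and 121362, or 1.55-fold lower [1.54 to 1.56]. No other mitochondrial gene tested had so small a difference in either sort.

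The cytochrome b gene mt-Cytb, the catalytic subunit of complex III, stood at 61949 and 37627 in the ACE sort and at 55878 and 27241 in the CD74 sort, and was 1.65-fold [1.63 to 1.67] and 2.05-fold [2.02 to 2.08] lower. The complex I genes encode the proton-pumping membrane arm. mt-Nd1 stood at 52338 and 28694 in the ACE sort (log2 ratio -0.87, not called) and at 48271 and 19531 in the CD74 sort (-1.31). mt-Nd2 had log2 ratios of -0.60 and -1.23, mt-Nd4 of -0.65 and -1.08, and mt-Nd5 of -0.98 and -1.005. In each of these 4 genes the call was made in the CD74 sort alone, and the difference between the sorts has no test. mt-Nd6, the one subunit gene on the other strand of the mitochondrial genome, was called lower in both sorts, at -1.13 and -1.21.

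A run of neighbouring genes from mt-Co2 to mt-Nd4l stood far below the others in level and is uncertain. The level per length was compared as TPM, in which reads are divided by the length of the principal transcript and scaled to 1 total in each library. The mean over the 4 libraries was 21408 TPM for mt-Co1, 7027 TPM for mt-Cytb and 6769 TPM for mt-Nd1, but 512 TPM for mt-Co2, 227 TPM for mt-Atp6, 296 TPM for mt-Co3, and 35.0 TPM and 34.8 TPM for mt-Nd3 and mt-Nd4l. mt-Atp8, which lies in the same run, had 2, 0, 1 and 4 reads in the ACE-negative, ACE-positive, CD74-negative and CD74-positive library. Of the 50-base windows of these genes, 99.5% in mt-Co2, 99.5% in mt-Atp6, 99.9% in mt-Co3, 98.0% in mt-Nd3 and 98.8% in mt-Nd4l also occur in an annotated pseudogene on chromosome 1. The share was 62.2% for mt-Nd4 and 28.7% for mt-Co1, of whose windows 51.1% occur in any other annotated gene. It was 0% for mt-Nd1, mt-Nd6, mt-Cytb and mt-Atp8. Only annotated transcripts were searched, so 0% does not show that the genome holds no copy. This matters most for mt-Atp8, which lies between mt-Co2 and mt-Atp6. How the authors' counting placed reads that fit both loci is not given in the sources used here, and its part in the low levels was not tested.

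The match is shown for mt-Nd3, the member with the lowest ratio, beside its pseudogene Gm28438. These are the first 120 bases of each from GENCODE M21 (GRCm38), with mt-Nd3 at chrM:9459-9578 on the plus strand and Gm28438 on the minus strand of chromosome 1. The capital is the base that differs, and over 345 aligned bases it is the 1 difference.
mt-Nd3: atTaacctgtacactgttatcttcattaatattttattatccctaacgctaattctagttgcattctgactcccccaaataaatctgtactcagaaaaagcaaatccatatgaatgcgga
Gm28438: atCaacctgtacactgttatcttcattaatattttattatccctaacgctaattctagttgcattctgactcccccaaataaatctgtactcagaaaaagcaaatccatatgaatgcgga

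mt-Nd3, a membrane subunit of complex I, had 135 reads from ACE-negative and 30 from ACE-positive cells, and 75 and 31 reads in the CD74 sort. In normalised reads it was 4.33-fold lower [2.90 to 6.66] in the ACE sort and 5.19-fold lower [3.37 to 8.15] in the CD74 sort. The 5 tested genes of the run were all called lower in the ACE sort, with a median of -1.28, and 4 of the 5 in the CD74 sort, with a median of -1.61. Of them, mt-Co3 (a core subunit of complex IV) stood at 2068 and 851 in the ACE sort and at 1946 and 577 in the CD74 sort. mt-Co2, the subunit that takes electrons from cytochrome c, had log2 ratios of -1.09 and -1.29, and mt-Atp6, the proton channel subunit of the ATP synthase, of -1.40 and -1.61. Without the run, 1 of 7 mitochondrial genes was called lower in the ACE sort (median -0.72) and 6 of 7 in the CD74 sort (median -1.08). Centred on GC content, 2 and 3 of the 12 mitochondrial genes were called lower, and 0 of 7 outside the run in either sort. Centred on the deposited length, the 7 genes outside the run had a median of 0.025 in the ACE sort, with 4 of 7 above 0, and of -0.23 in the CD74 sort.

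**Figure D4:**
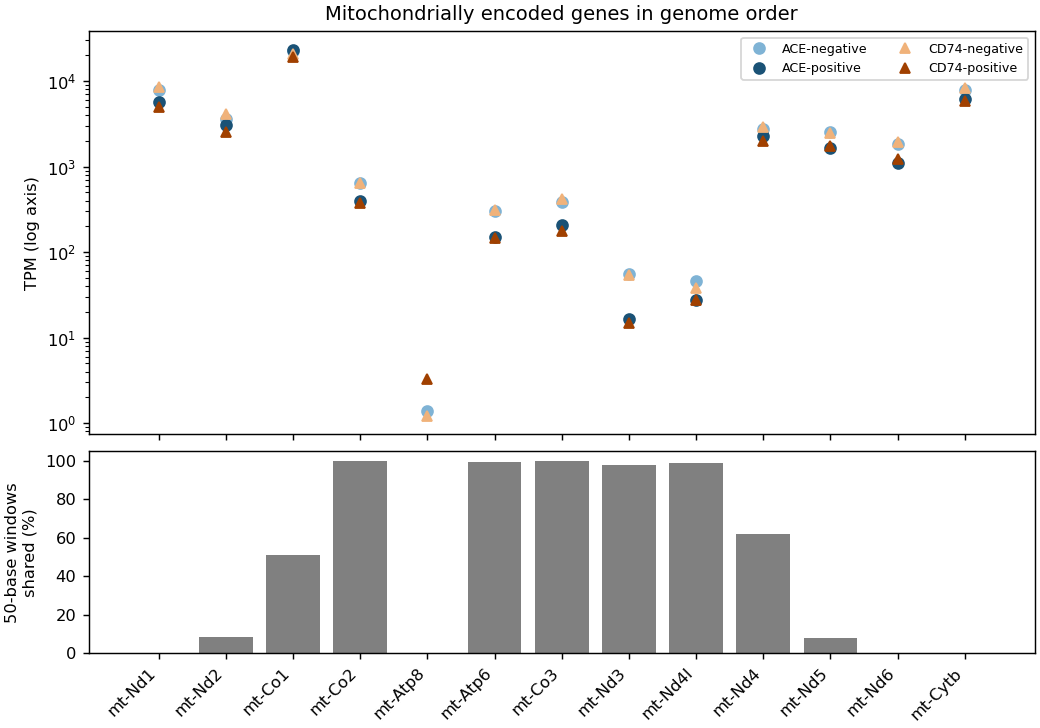
Upper panel, level per length (TPM, log axis) of the mitochondrial genes in the order of the mitochondrial genome in the 4 libraries; lower panel, percent of each gene's 50-base windows that also occur in another annotated gene. mt-Atp8 in the ACE-positive library is at 0 and is not drawn; the genes from mt-Co2 to mt-Nd4l lie lowest and, apart from mt-Atp8, share 98.0% to 100% of their windows.

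Complex I, the NADH dehydrogenase, had 20 of 35 nuclear members called lower in the ACE sort and 24 of 35 in the CD74 sort, with medians of -1.12 and -1.13. Its 7 nuclear core subunits, which carry the flavin and the iron-sulphur clusters or hold the quinone site, had 2 and 3 members called, and its accessory subunits 18 of 28 and 21 of 28. Centred on transcript length, 1 of 35 and 0 of 35 nuclear members were called lower (all genes 4.83% and 3.46%). Core and accessory subunits were not counted apart after centring. Ndufs1 (chromosome 1, 63143596 to 63176833), the largest core subunit, had the highest ratio among the tested members of the complex in both sorts. Its level was 758 in the ACE-negative and 669 in the ACE-positive library (log2 ratio -0.18), and 678 and 665 in the CD74 sort (-0.03), where the interval included 1; with plain totals as the scale the CD74 value was 0.15. The core subunit gene Ndufs8, in contrast, stood at 1806 and 691 in the ACE sort and at 1565 and 532 in the CD74 sort, and was 2.61-fold [2.39 to 2.86] and 2.94-fold [2.68 to 3.23] lower. The principal transcript of Ndufs1 has 2661 bases and that of Ndufs8 1005 bases. Of the accessory subunits, Ndufc1 was the lowest in the ACE sort, at 446 and 112 or 3.98-fold lower [3.23 to 4.95], and stood at 325 and 114 in the CD74 sort. Ndufa11 was the lowest in the CD74 sort, at 261 and 77.2 or 3.38-fold lower [2.65 to 4.31], and was 2.11-fold lower [1.72 to 2.61] in the ACE sort.

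The nuclear members of complex I with the highest level per length were Ndufa4, at a mean of 428 TPM, and Ndufb7, at 348 TPM. Ndufa4 stood at 2556 and 964 in the ACE sort and at 1968 and 653 in the CD74 sort, and was called lower in both (log2 ratios -1.41 and -1.59). Ndufb7 was called in the CD74 sort alone, at -1.18 against -0.93 in the ACE sort. Ndufa4l2, a hypoxia-inducible relative of Ndufa4, had 0 and 3 reads in the ACE sort and 2 and 0 reads in the CD74 sort, which is at or under the 3 reads that a count of 0 allows. Ndufb2 had 18 and 26 reads and 7 and 20 reads, and was too low to be tested.

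Complex II, succinate dehydrogenase, links the citric acid cycle to the respiratory chain, and 1 of its 4 genes was called lower in each sort. Sdha (chromosome 13, 74322254 to 74350280), the flavoprotein that oxidises succinate, stood at 2561 in the ACE-negative and 2541 in the ACE-positive library, a log2 ratio of -0.01 with a counting interval that includes 1. In the CD74 sort it stood at 1761 and 2053, or 1.17-fold higher [1.09 to 1.25]. Its direction depends on the scale in the ACE sort: with plain totals the log2 ratio was 0.13, and 0.40 in the CD74 sort. Sdhb, the iron-sulphur subunit that takes the electrons from it, stood at 2558 and 1189 in the ACE sort and at 2243 and 923 in the CD74 sort, and was 2.15-fold [2.01 to 2.31] and 2.43-fold [2.26 to 2.62] lower. Without centring, the membrane anchors lay between them: Sdhc had log2 ratios of -0.57 and -0.82, and Sdhd of -0.69 and -0.60. The principal transcripts of the 4 genes differ in length, with 2900 bases for Sdha, 1142 for Sdhb, 3171 for Sdhc and 1231 for Sdhd. Centred on transcript length, none of the 4 was called. Sdha was then at 0.14 and 0.32 and Sdhb at -0.40 and -0.47, while Sdhc became the lowest, at -0.48 and -0.80, and Sdhd was at 0.01 and 0.21.

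In complex III, the cytochrome bc1 complex, 5 of 8 nuclear genes were called lower in the ACE sort and 6 of 8 in the CD74 sort. Centred on transcript length, 0 of 8 were called lower in either sort (all genes 4.83% and 3.46%). The hinge protein gene Uqcrh had the highest level per length, at a mean of 579 TPM, and stood at 2809 and 1297 in the ACE sort and at 2430 and 844 in the CD74 sort. It was the lowest member of the complex in the CD74 sort (2.88-fold lower [2.67 to 3.10]), and Uqcrq the lowest in the ACE sort (2.45-fold lower [2.27 to 2.65]). Uqcr10, a small accessory subunit with the next highest level per length (353 TPM), stood at 1354 and 656 in the ACE sort and at 1050 and 473 in the CD74 sort, and was 2.06-fold [1.88 to 2.27] and 2.22-fold [1.99 to 2.47] lower. Uqcrfs1, the Rieske iron-sulphur protein that passes electrons to cytochrome c1, was not called in either sort, with log2 ratios of -0.57 and -0.67. The core protein genes parted: Uqcrc1 was called in both sorts, at -1.16 and -1.25, and Uqcrc2 in neither, at -0.61 and -0.62. Of the exon bases of Uqcrc2, 19.75% overlap Pdzd9, a gene on the other strand, against 0% overlap for Uqcrc1.

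Complex IV, cytochrome c oxidase, had 7 of 12 tested nuclear genes called lower in the ACE sort and 10 of 13 in the CD74 sort. Centred on transcript length, it had 0 of 12 and 0 of 13 called lower (all genes 4.83% and 3.46%). Its nuclear subunits surround the mitochondrial core, and several come as a ubiquitous and a tissue form. Cox4i1, the ubiquitous form of subunit 4 and the member of the complex with the highest nuclear level per length (878 TPM), stood at 6042 and 2247 in the ACE sort and at 5642 and 1780 in the CD74 sort. It was 2.69-fold [2.56 to 2.82] and 3.17-fold [3.02 to 3.33] lower. Its hypoxia-linked form Cox4i2 had 4 and 2 reads and 3 and 11 reads. Among the forms of subunit 6a, Cox6a1 had log2 ratios of -0.75 and -1.08. The heart and muscle form Cox6a2 had 68 and 26 reads in the ACE sort, too low to be tested. In the CD74 sort it had 52 and 42 reads, or 76.1 and 28.7 normalised reads, and was called lower (2.65-fold [1.73 to 4.08]). Of its exon bases, 10.3% overlap Itgad, a gene on the other strand.

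The testis form Cox6b2 was the nuclear member of the complex with the lowest ratio, at 138 and 42 reads in the ACE sort (3.16-fold lower [2.22 to 4.58]) and 78 and 44 reads in the CD74 sort (3.80-fold lower [2.59 to 5.63]). Its ubiquitous counterpart Cox6b1 stood at 3473 and 1646 in the ACE sort and at 2745 and 1231 in the CD74 sort. Cox7a2 was called lower in both sorts (-1.60 and -1.52), whereas Cox7a2l, whose product, in mouse strains with its long allele, helps join complexes III and IV, stood at -0.40 and -0.99 and was called in neither. The muscle form Cox7a1 had 11 and 6 reads and 7 and 4 reads. The 9 striated muscle genes listed as markers summed to 1.51 and 9.69 CPM in the ACE sort and to 5.56 and 7.91 in the CD74 sort. Cox5a, at -0.46 and -0.39, had the smallest difference of the complex in the CD74 sort, and Cox8a, at -0.71 and -0.76, was called in neither.

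Complex V, the ATP synthase, took the largest share of nuclear reads, with 0.510% in the ACE-negative and 0.278% in the ACE-positive library, against 0.506% and 0.286% in the CD74 sort. Of its 17 nuclear genes, 10 were called lower in the ACE sort and 13 in the CD74 sort. In F1, the catalytic head with its central stalk (Atp5a1, Atp5b, Atp5c1, Atp5d and Atp5e), 2 of 5 and 3 of 5 were called, and in Fo with the peripheral stalk and small subunits 8 of 12 and 10 of 12. Centred on transcript length, 2 of the 17 were called lower in each sort (all genes 4.83% and 3.46%). F1 and Fo were not counted apart after centring. Atp5b, the catalytic beta subunit and the nuclear member with the highest level per length (934 TPM), stood at 14047 and 8032 in the ACE sort and at 11475 and 6853 in the CD74 sort. It was 1.75-fold [1.70 to 1.80] and 1.67-fold [1.63 to 1.72] lower and was called in neither. Atp5e (chromosome 2, 174461072 to 174464105), the small epsilon subunit of the central stalk, stood at 3303 and 908 in the ACE sort and at 2451 and 693 in the CD74 sort, or 3.64-fold [3.38 to 3.92] and 3.53-fold [3.27 to 3.83] lower. The transcript of Atp5e has 421 bases and that of Atp5b 1916 bases. Atp5k, a small Fo subunit chosen here after its values were seen, had log2 ratios of -1.85 and -1.66.

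The c subunit, which forms the rotating ring of Fo, is encoded by 3 genes, and their sequences are shown because they part the reads of a single mature protein. The last 237 coding bases of Atp5g1 (chromosome 11), Atp5g2 (chromosome 15) and Atp5g3 (chromosome 2) encode the same 78 residues and the stop, read here on the coding strand of the GENCODE M21 transcripts (GRCm38). In capitals are the 64 positions that are not alike in all 3 genes.
Atp5g1: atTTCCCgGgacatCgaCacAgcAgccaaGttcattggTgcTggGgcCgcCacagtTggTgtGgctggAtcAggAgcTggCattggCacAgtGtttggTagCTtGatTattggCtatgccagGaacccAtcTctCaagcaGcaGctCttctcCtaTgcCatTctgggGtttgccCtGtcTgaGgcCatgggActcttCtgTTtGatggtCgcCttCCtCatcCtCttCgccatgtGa
Atp5g2: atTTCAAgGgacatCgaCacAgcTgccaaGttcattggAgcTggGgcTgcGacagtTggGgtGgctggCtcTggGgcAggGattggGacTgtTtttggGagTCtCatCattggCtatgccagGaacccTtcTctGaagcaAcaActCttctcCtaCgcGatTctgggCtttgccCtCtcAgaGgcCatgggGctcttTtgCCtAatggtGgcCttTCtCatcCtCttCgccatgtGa
Atp5g3: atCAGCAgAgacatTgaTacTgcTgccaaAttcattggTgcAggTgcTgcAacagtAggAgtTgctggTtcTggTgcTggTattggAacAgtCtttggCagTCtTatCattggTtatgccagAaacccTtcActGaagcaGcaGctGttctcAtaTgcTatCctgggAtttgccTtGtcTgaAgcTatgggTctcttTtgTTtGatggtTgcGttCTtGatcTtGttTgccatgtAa

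All 3 genes of the c subunit were read, and the order of their ratios differed between the sorts. Atp5g1 stood at 868 and 554 in the ACE sort (1.57-fold lower [1.41 to 1.75]) and at 914 and 402 in the CD74 sort (2.27-fold lower [2.03 to 2.55]). Atp5g2 stood at 2024 and 1246 (1.62-fold lower [1.51 to 1.74]) and at 1969 and 837 (2.35-fold lower [2.17 to 2.54]). Atp5g3 stood at 2341 and 1162 (2.01-fold lower [1.88 to 2.16]) and at 2093 and 1034 (2.02-fold lower [1.88 to 2.18]). Atp5g1 and Atp5g2 were thus called in the CD74 sort alone and Atp5g3 in both. Of the 50-base windows of Atp5g2, 87.4% also occur in a processed pseudogene, against 11.6% shared windows in Atp5g1 and 0% in Atp5g3. The share of Atp5g1 is taken over a long form of 4715 bases and stands for 542 windows. A processed pseudogene holds 7.18% of the Atp5g1 windows. The levels of Atp5g2 and Atp5g1 are thus uncertain. Over the nuclear members with no shared window, 17 of 31 were called lower in the ACE sort and 22 of 31 in the CD74 sort.

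The sorts were compared member by member. Of the 88 members tested in both, 46 were called lower in both, which is 93.9% of those called in the ACE sort and 73.0% of those called in the CD74 sort. Of all genes tested in both, 5.23% were called lower in both, which is 53.9% of those called in the ACE sort and 62.9% of those called in the CD74 sort. The libraries of the sorts are separate, but nothing in the labels says that the cells came from different animals. Across the 76 nuclear genes tested in both sorts the log2 ratios had a Pearson correlation of 0.80, and across all genes of 0.78, where the points of each share their libraries, and their ratios move with transcript length. Of the 12 mitochondrial genes, 11 had a lower log2 ratio in the CD74 sort than in the ACE sort, with a median difference of -0.27, and of the 76 nuclear genes 43 did, with a median difference of -0.07. The 2 sorts were scaled separately, and this difference was not tested.

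**Figure D5:**
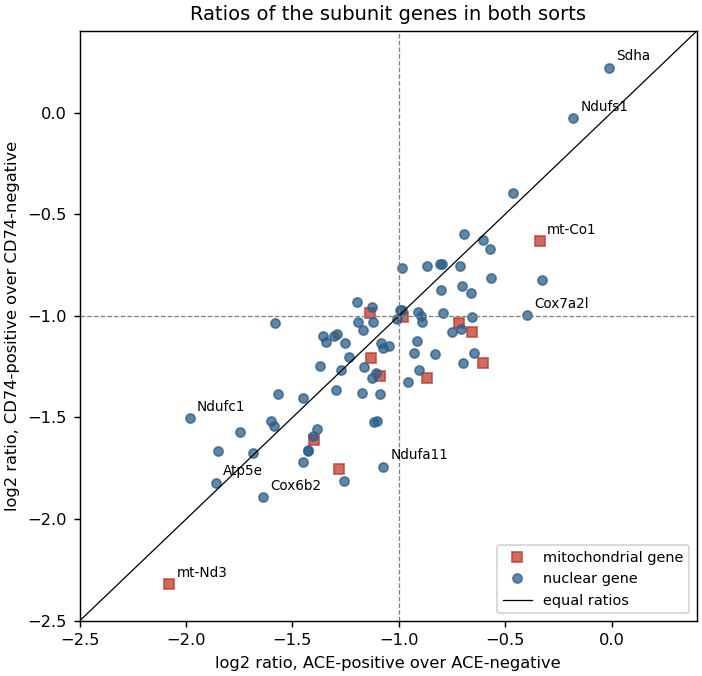
Log2 ratio in the CD74 sort (vertical axis) against that in the ACE sort (horizontal axis) for the members tested in both; squares are mitochondrial genes, circles nuclear genes, the solid line marks equal ratios and dashed lines 2-fold lower. Sdha and Ndufs1 lie at the upper right, mt-Nd3 at the lower left, and 11 of 12 squares lie below the line.

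Promoters were read for sites of the factors known to drive these nuclear genes, NRF1, GABP of the ETS family, and YY1. RefSeq promoter windows (GRCm38.p6, 250 bases before to 50 after a start) were found for 66 of the 81 nuclear members, in 71 windows. The NRF1 motif, a palindrome-like run of bases with 1 free position, was sought on both strands, as were the others, and was in 25.4% of these windows and in 4.60% of all 32851 windows. The ETS motif CCGGAAG was in 23.9% against 8.86%, and the YY1 motif AAGATGGC in 14.1% against 2.75%. The most NRF1 matches, 3 in each, were in the windows of Sdha and Ndufb4, which are shown because their ratios lie far apart. Both are on the minus strand, and capitals mark the motif.
Sdha, chr13:74350191-74350490: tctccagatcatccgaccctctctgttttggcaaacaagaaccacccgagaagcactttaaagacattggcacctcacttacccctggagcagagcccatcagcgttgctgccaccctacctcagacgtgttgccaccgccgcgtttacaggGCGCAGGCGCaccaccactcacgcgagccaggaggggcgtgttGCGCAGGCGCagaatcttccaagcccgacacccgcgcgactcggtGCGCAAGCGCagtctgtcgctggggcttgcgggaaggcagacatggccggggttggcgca
Ndufb4, chr16:37654319-37654618: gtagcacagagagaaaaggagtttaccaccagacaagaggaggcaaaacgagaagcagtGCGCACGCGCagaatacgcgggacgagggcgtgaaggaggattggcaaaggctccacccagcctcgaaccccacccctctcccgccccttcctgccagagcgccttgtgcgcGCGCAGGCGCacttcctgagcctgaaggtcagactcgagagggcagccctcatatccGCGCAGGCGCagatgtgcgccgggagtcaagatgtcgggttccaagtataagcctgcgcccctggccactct

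The members were then parted by the NRF1 motif, with no test of the difference. The 17 members with it had a median log2 ratio of -1.08 in the ACE sort and -1.23 in the CD74 sort, and the 47 tested members without it -1.10 and -1.13. Called lower were 11 of 17 with it and 26 of 47 without it in the ACE sort, and 14 of 17 and 32 of 47 in the CD74 sort. Ndufb4, an accessory subunit of complex I, stood at 539 and 200 in the ACE sort and at 463 and 145 in the CD74 sort (log2 ratios -1.43 and -1.66), while Sdha, with as many matches, stood at -0.01 and 0.22.

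Genes that serve the complexes but are not subunits were read from 4 lists, also without centring on length. Over all genes tested, 9.66% were called lower and 10.2% higher in the ACE sort, and 8.4% and 10.1% in the CD74 sort. The lists are short, and their counts were not tested against these shares. Of 35 tested assembly factors, 6 were called lower and 0 higher in each sort, with medians of -0.48 and -0.51. Coa5, the most abundant, stood at 0.14 and 0.04, Sdhaf2, which helps insert the flavin into Sdha, at -0.42 and -0.64, and Uqcc2, a complex III assembly factor, at -1.56 and -1.90. Of 13 genes for maintenance and transcription of mitochondrial DNA, 1 was called lower in the ACE sort and 0 in the CD74 sort. Polg, the mitochondrial DNA polymerase, stood at 0.21 and 0.58, and Tfam, which packages mitochondrial DNA, at -0.88 and -0.90. Of the regulators of mitochondrial biogenesis, 0 of 7 were called in the ACE sort, and in the CD74 sort 2 of 8 were called higher: Pprc1 (2.41-fold [1.92 to 3.07]) and Ppargc1b (2.33-fold [1.55 to 3.64]), both coactivators of mitochondrial genes. Yy1 and Gabpa, the most abundant regulators, stood at -0.03 and 0.43 and at -0.03 and -0.04. Of 13 carriers and partners, 2 and 3 were called lower. Cycs, which encodes cytochrome c, was called lower in the ACE sort (2.38-fold [2.22 to 2.55]) and not in the CD74 sort (1.86-fold lower [1.73 to 2.01]). Slc25a5, an exchanger of ADP and ATP, stood at -0.69 and -0.88, while Ucp2, an abundant carrier of the inner membrane, stood at 17078 and 17193 in the ACE sort and at 14987 and 12782 in the CD74 sort.

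Markers of other cells differed between the same libraries. The 9 neutrophil genes summed to 15649 CPM in the ACE-negative and 11931 in the ACE-positive library, and to 26268 and 15014 in the CD74 sort, with 2 and 3 of 9 called lower. Of the 8 T and NK cell genes, 7 were among the genes listed. These 7 summed to 79.2 and 20.6 in the ACE sort and to 92.3 and 34.3 in the CD74 sort. Fibroblast and periosteal genes were higher in sum in the positive libraries, at 790 and 2711 and at 1235 and 2156. So were endothelial genes, at 56.0 and 113 and at 68.5 and 114, and osteoclast genes, at 314 and 793 and at 548 and 668. Called higher were 3 and 0 of 6 tested fibroblast and periosteal genes, 2 and 2 of 3 endothelial and 2 and 1 of 3 osteoclast genes. Log2 ratios below 0 were found for 1 and 2 of the 6, and for 0 and 1 of 3 in each of the other lists. Sums of 4 lists went opposite ways in the 2 sorts. B cell genes summed to 84.0 and 180 in the ACE sort and to 189 and 164 in the CD74 sort, and osteoblast genes to 105 and 228 and to 156 and 130. Of the 6 B cell genes, 4 were called higher in the ACE sort. In the CD74 sort 1 was called higher, 0 lower, and 3 of the 6 had log2 ratios below 0. Of 5 tested osteoblast genes, 3 were called higher in the ACE sort and 1 lower in the CD74 sort. Mast cell and basophil genes summed to 217 and 112 in the ACE sort and to 159 and 806 in the CD74 sort, and erythroid genes to 424 and 908 and to 1266 and 638. Of 5 tested mast cell and basophil genes, 3 were called lower in the ACE sort and 5 higher in the CD74 sort. Of 7 erythroid genes, 4 were called higher in the ACE sort and 4 lower in the CD74 sort. The 8 macrophage and monocyte genes were present in all 4 libraries, and the calls among them were 4 up and 1 down in the ACE sort, against 1 up and 0 down in the CD74 sort. Csf1r, the receptor for the macrophage growth factor, stood at 644 and 1909 CPM and at 580 and 1184 CPM, Cx3cr1 was 2.62-fold and 1.80-fold higher, and Mertk, a receptor for dying cells, 21.3-fold and 21.7-fold higher. Lyz2, the most abundant of the list, was 2.20-fold and 1.68-fold lower, and with it the sum of the list went from 24374 to 16346 CPM in the ACE sort and from 21480 to 16695 CPM in the CD74 sort. Ptprc, which encodes CD45, was 1.90-fold and 1.33-fold higher. The part of any of these cells in the ratios of the subunit genes was not tested.

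The authors' deposited table gives an adjusted p-value of 1 to all 94 members in both sorts. The lowest unadjusted p-values of members in the authors' deposited table are 0.0256 in the ACE sort and 0.0317 in the CD74 sort, with 5 and 3 members under 0.05. Among all genes listed, 22 in the ACE sort and 1 in the CD74 sort have an adjusted p-value under 0.05 in the authors' deposited table.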

How the data were processed

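RNA-seq was made from sorted periosteum cells with 1 library in each of 4 groups, using an Illumina TruSeq kit per the labels' protocols. HISAT2 and the build GRCm38 are named by the submitters' processing notes; no source used here gives the counter, its strand setting or the authors' test, so reads of overlapping antisense genes cannot be told apart. The authors deposited 2 tables of size-factor-normalised signal per library, per the file headers. They also deposited a log2 fold change, p-values and adjusted p-values per gene, per the file headers. The columns of the CD74 table were assigned from its header, since the labels name that table in another way. Within a tolerance of 0.001 reads, 100% of deposited signal values were whole multiples of what 1 read is worth, and the whole reads were recovered. The number of further per-library columns was 0.

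Ratios and exact conditional binomial (Clopper-Pearson) 95% intervals were computed over all genes listed; reads carry no molecular identifiers, so intervals and the limit of 3 reads for a count of 0 cover counting error only. Neither edgeR's nor DESeq2's test could be fitted with 1 library a group, which leaves no residual degrees of freedom, and no p-value was computed. TMM factors came from edgeR 4.0.16 (R 4.3.3); other steps used Python 3.11.15 with scipy 1.17.1, pandas 2.3.3, numpy 2.4.6 and, for figures, matplotlib 3.10.9. Transcript lengths, GC content and shared 50-base windows came from GENCODE M21. Coordinates are those of the deposited tables.

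The members and lists were chosen with earlier results of these data known. Named were all mitochondrial members, the paralogue groups, all Sdh genes, and in each complex the 2 nuclear members with the highest level per length and those with the highest and lowest ratio in each sort; from other lists, the 2 with the highest mean. Ndufs8, Ndufb2, Ndufb4, Ndufv1, Uqcrc1, Atp5d and Atp5k, and Uqcc2, Cycs, Pprc1, Ppargc1b, Csf1r, Cx3cr1 and Mertk, were named after their values were seen. Alternatives were other size factors, centring by length or GC content, pseudocounts of 0.1 and 10, other minimums and a 1.5-fold limit; centring by principal transcript length was chosen after seeing the data.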

Additional observations from a re-analysis of the deposited data

How the results depend on the processing

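The medians of all tested mitochondrial and of all tested nuclear members stayed below 0 in both sorts under all 11 alternatives, while that of the 7 mitochondrial genes outside the run from mt-Co2 to mt-Nd4l was 0.025 in the ACE sort when centred by deposited length, and 0 members were called higher under any. No replicate could be left out with 1 library in each group. No paired analysis was possible because each group holds 1 library. With plain totals as the scale, which shifted the median of all genes by 0.14 (log2) in the ACE sort and 0.18 in the CD74 sort, the medians of mitochondrial and nuclear members were -0.89 and -0.94 in the ACE sort and -1.04 and -0.95 in the CD74 sort. Members called lower were then 34 in the ACE sort and 42 in the CD74 sort, where 6.58% and 5.03% of all genes were called lower. Of all genes tested, 12.8% and 14.1% were called higher. Calls of higher thus made up 66.1% and 73.7% of all calls, against 51.3% and 54.5% on the deposited size factors. With totals that left out mitochondrial genes, the medians were -0.91 and -0.96 and -1.06 and -0.97. Members called lower were 35 in the ACE sort and 42 in the CD74 sort, against 6.82% and 5.29% of all genes.

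Centring by deposited gene length left 10 members called lower in each sort, with medians of -0.36 and -0.56 in the ACE sort and -0.28 and -0.54 in the CD74 sort. Centring by principal transcript length, chosen after seeing the data, left 4 and 3, with medians of -0.26 and -0.38 and of -0.45 and -0.34. The 4 in the ACE sort were Atp5e, Ndufc1, Atp5md and mt-Nd3, and the 3 in the CD74 sort mt-Nd3, Atp5md and Atp5g1; a long form of 4715 bases stands for Atp5g1, which also has short ones. The log2 ratio of Atp5g3, CD74 sort, turned from -1.02 to 0.023 with it. Centring by GC content gave medians of -0.72 and -0.98 in the ACE sort and -0.87 for the mitochondrial members in the CD74 sort. Called lower were then 2 and 3 of 12 mitochondrial genes, against 7.54% and 8.04% of all genes. A minimum of 20 CPM moved the mitochondrial median in the ACE sort to -0.92, as it leaves out low genes. A 1.5-fold limit called 80 of 88 members lower in the ACE sort and 86 of 89 in the CD74 sort. Of all genes tested, 23.7% and 21.8% were called lower at that limit. The causes of the other shifts were not tested. Of the values of single named members under alternatives, 705 kept their side of the limit for a call, 129 lost a call, 25 gained one, and 1 called value turned (Atp5g3). Counting values with no call too, 33 of 860 changed sign: 15 with principal transcript length, 14 with deposited length, and 2 under each of the plain totals (Sdha in the ACE sort and Ndufs1 in the CD74 sort).

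For mt-Atp8, Ndufa4l2, Cox4i2, Cox7a1 and Ndufb2 there were too few reads for a statement on direction. Why their reads are few was not tested, and it need not be depth. mt-Atp8 lies in the uncertain run from mt-Co2 to mt-Nd4l. Ndufb2 is represented by a form of 4371 bases, and 2.58% of its exon bases overlap another gene on the same strand.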
